A study of Mus musculus with 5 samples.

Results

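Runx3 binding and H3K4me1 marking were examined at Cish, Socs1, Socs2, Socs3 and Pim1, 5 of the 22350 protein-coding genes annotated on the autosomes and chromosome X. A peak was assigned to a gene when it overlapped the gene or the 20 kb to either side by at least 1 bp. By this rule 13 of 11676 Runx3 peaks and 47 of 34204 H3K4me1 peaks were assigned to the 5 genes. For 11 of these Runx3 peaks and 32 of these H3K4me1 peaks, the nearest protein-coding gene start was that of the assigned gene. The cells were splenic NKC of ICR mice, isolated by negative selection and cultured for 7 days with 1000 u/ml of human recombinant IL-2. The study's methods also describe a sort for DX5+ cells after the negative selection. All libraries came from these IL-2-activated cells: 2 were made with a polyclonal antibody to Runx3, 1 with a monoclonal antibody to H3K4me1, a histone mark enriched at enhancers, and 2 with non-immune rabbit serum (NIS) as control. The 2 Runx3 libraries were joined before peak calling, and the lists hold positions only. Peak height and the spread between libraries therefore could not be measured, read depth is given in the study's methods but not in the lists, no other condition was compared, and no value below has a replicate error.

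The proteins of these genes act in the feedback on cytokine receptors. IL-2 and IL-15 signal through shared receptor chains to JAK1 and JAK3, which phosphorylate STAT5. STAT5 enters the nucleus and binds DNA at palindromic sites, and the SOCS genes and Pim1 are among its classical targets in lymphocytes. The SOCS proteins, of which CIS (encoded by Cish) is one, carry an SH2 domain and a SOCS box that recruits a ubiquitin ligase. SOCS1 and SOCS3 also inhibit JAK kinases directly, SOCS2 is best known for restraining growth hormone signalling, and CIS restrains IL-15 signalling in NKC. PIM1 is a serine/threonine kinase that is active as soon as it is made and promotes survival and growth.

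The labels describe the cultures as NKp46+. A peak list holds no expression level, and peaks were not confined to NKC markers. Runx3 peaks were present at all 7 NKC markers examined (Ncr1, Klrb1c, Klrk1, Eomes, Tbx21, Prf1 and Gzmb), at 2 of 3 T cell markers, 2 of 3 B cell markers and 2 of 3 myeloid markers. H3K4me1 peaks were present at the same number of markers of each type. Over all protein-coding genes, 41.1% had a Runx3 peak and 51.1% an H3K4me1 peak by the same rule. These few markers were not tested.

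The 5 genes fell into 3 patterns. Cish, Socs1 and Pim1 had a Runx3 peak across the gene start, more Runx3 peaks downstream and many H3K4me1 peaks in the window. At Pim1 all 12 H3K4me1 peaks lay downstream of the gene, and only 2 of the 4 Runx3 peaks overlapped one. Socs3 had H3K4me1 peaks around the gene but its single Runx3 peak was 20016 bp upstream, inside a neighbouring gene. Socs2 had no peak of either list. The map of the loci shows the layouts side by side.

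**Figure D1:**
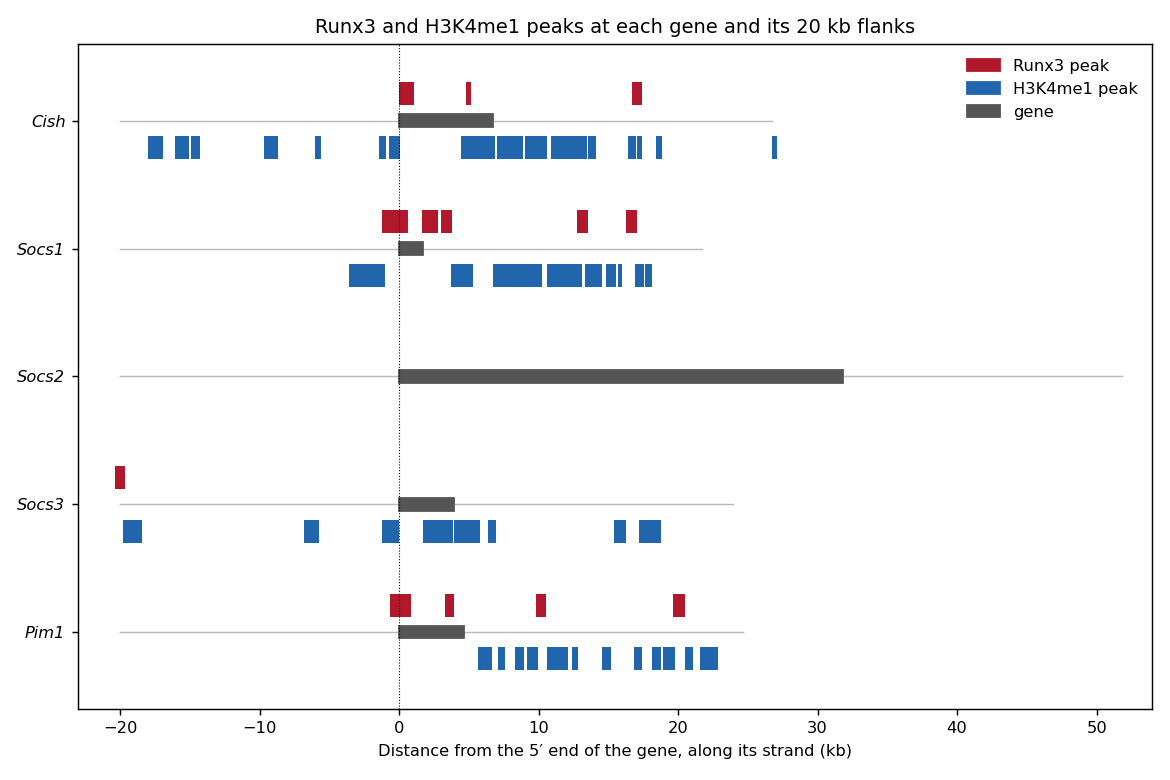
Peaks at the 5 genes, drawn to scale along the strand of each gene, with the distance from the 5′ end of the gene in kb on the x axis. Grey lines span the gene and its 20 kb flanks. Runx3 peaks (red, above) cross the gene start at Cish, Socs1 and Pim1, H3K4me1 peaks (blue, below) lie mainly downstream, and Socs2 has neither.

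STAT motifs near the starts of Cish, Socs2 and Socs3 are shown first, since they occurred both inside and outside Runx3 peaks. The STAT motif searched was TTCNNNGAA, which is its own reverse complement. The RUNX motif was TGNGGN with C or T at each N, and on the opposite strand it reads NCCNCA with A or G at each N. STAT matches are in capitals, and in Socs2 also the RUNX match. All sequences are mm9, on the strand of the gene, and a Runx3 peak is named by the distance of its centre from the gene start in kb (plus for downstream).

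Cish +0.5 kb, upstream pair (chr9:107198983-107199012, plus strand): cccagttTTCCTGGAAagTTCTTGGAAatc
Cish +0.5 kb, downstream pair (chr9:107199093-107199122, plus strand): ggTTCTAGGAAgatgaggcTTCCGGGAAgg
Socs2, before a transcript start, in no peak (chr10:94879517-94879591, minus strand): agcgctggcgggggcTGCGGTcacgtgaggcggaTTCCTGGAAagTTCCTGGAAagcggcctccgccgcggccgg
Socs3, before a transcript start, in no peak (chr11:117830542-117830571, minus strand): ggccgggcagTTCCAGGAAtcggggggcgg

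The Runx3 peak at the start of Cish held 4 STAT matches, in pairs whose starts were 11 and 17 bp apart. Their first bases lay 633, 644, 738 and 755 bp downstream of the 5′ end of the gene in GENCODE M1, in the 5′ UTR of the transcript that begins there. The start of Cish in RefSeq, found by an exact match of its promoter to mm9, is at 107198990, the first base of the upstream pair. Only 5 of 11676 Runx3 peaks held 4 or more STAT matches (0.0428%). A pair of STAT matches with starts up to 25 bp apart, a distance chosen after the matches at Cish were seen, was found within 1 kb of a transcript start in 187 of 22350 protein-coding genes (0.837%). In 5 of these 187 genes the pair overlapped a Runx3 peak by at least 1 bp, and Cish was one of them. Socs2 also held such a pair, preceded by a RUNX motif, upstream of the start of a coding transcript that begins inside the annotated gene, and no Runx3 or H3K4me1 peak covered it. The Socs3 match lay between the RefSeq start of that gene and the start of its coding transcript in GENCODE, also outside both lists.

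Cish (chromosome 9, 107198357 to 107205115, plus strand) had 3 Runx3 peaks and 17 H3K4me1 peaks, the most H3K4me1 peaks of the 5 genes. A Runx3 peak was present in the gene or its flanks at 41.1% of protein-coding genes and an H3K4me1 peak at 51.1%. Of all protein-coding genes, 7.36% had at least 3 Runx3 peaks and 1.34% at least 17 H3K4me1 peaks. The peak at the start (chr9:107198328-107199442) was 1115 bp wide and centred 528 bp downstream of the gene start. It met an H3K4me1 peak over 120 bp at its upstream edge, and downstream no H3K4me1 peak followed for 3891 bp from its centre. A narrow peak of 424 bp (chr9:107203124-107203547) lay wholly under the widest H3K4me1 peak of the locus, which measured 2474 bp (chr9:107202776-107205249), and was centred in the last exon, in the 3′ UTR. The antisense transcripts Gm17040, at the start, and Gm17041, here, overlap these peaks too. The third (chr9:107215054-107215746) was intergenic, 17043 bp downstream of the start, and 87.7% of it was covered by H3K4me1. It was the only one of the 13 peaks without a RUNX motif, although it held 5 ETS, 1 AP-1 and 1 STAT match.

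Marking at Cish was heaviest downstream. Of its 17 H3K4me1 peaks 9 were centred beyond the end of the gene, 1 in it and 7 upstream, where 4 touched Mapkapk3, which encodes a kinase of the p38 pathway. H3K4me1 covered 33.8% of the window, against a median of 0.299% over all protein-coding genes, and 0.201% of genes had as much. When H3K4me1 peaks closer than 1 kb were joined, 6 peaks formed a domain of 9697 bp (chr9:107202776-107212472). Of all 23008 joined domains, 0.465% were at least as wide, and the median was 827 bp.

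Socs1 (chromosome 16, 10783901 to 10785629, minus strand), the inhibitor of JAK kinases, had the most Runx3 peaks, 5, with 10 H3K4me1 peaks. At least 5 Runx3 peaks were found at 1.54% of protein-coding genes and at least 10 H3K4me1 peaks at 4.64%. Runx3 peaks covered 12.9% of its window, a share that 0.0224% of genes reached. The peak over the gene start (chr16:10784972-10786884) was 1913 bp wide, and 0.188% of all Runx3 peaks were as wide. It reached from the first exon to the upstream flank, was centred 299 bp upstream and held 7 RUNX motifs, 4 of them within 42 bases at its upstream end. Around the 3′ end lay a peak of 1127 bp (chr16:10782867-10783993), which touched the gene and was centred 2199 bp downstream of its start, and past it one of 760 bp (chr16:10781845-10782604), centred 3405 bp downstream. Each of these held 5 RUNX motifs. The first of them overlapped no H3K4me1 peak and the second touched one over 93 bp.

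Farther downstream of Socs1, Runx3 peaks were centred 13177 bp (chr16:10772056-10772848) and 16642 bp (chr16:10768596-10769379) from the gene start. Both lay in a joined H3K4me1 domain of 11417 bp (chr16:10767492-10778908), the widest of the 5 loci, which 0.283% of all joined domains matched or exceeded. It held the widest H3K4me1 peak of the window, 3550 bp (chr16:10775359-10778908). H3K4me1 covered 32.9% of the window. The other side of Socs1 carries the sperm genes Tnp2, Prm3, Prm2 and Prm1, which encode proteins that package DNA in sperm. No Runx3 peak touched any of these, and 1 H3K4me1 peak touched Tnp2, the nearest to Socs1.

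Pim1 (chromosome 17, 29627757 to 29632390, plus strand) had 4 Runx3 peaks and 12 H3K4me1 peaks. At least 4 Runx3 peaks were found at 3.23% of protein-coding genes and at least 12 H3K4me1 peaks at 3.15%. The peak over the start (chr17:29627146-29628607) was 1462 bp wide, centred 119 bp downstream, and held 3 RUNX motifs, each of the variant TGCGGC, but no STAT match. A peak of 613 bp (chr17:29631067-29631679) lay in the gene, its centre in an intron 3616 bp from the start. Neither overlapped H3K4me1. All 12 H3K4me1 peaks of Pim1 lay downstream of the gene, the nearest centred 6175 bp from the start, while the next one upstream was centred 53672 bp away.

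The downstream Runx3 peaks of Pim1 were centred 10200 bp (chr17:29637594-29638321) and 20042 bp (chr17:29647376-29648223) from the start, and both overlapped H3K4me1. The second was nearer to the start of Gm17657, 8936 bp away, than to that of Pim1. The widest H3K4me1 peak (chr17:29638394-29639872) measured 1479 bp. Joining gave a domain of 7147 bp from 6 peaks (chr17:29633450-29640596), a width that 1.20% of domains reached. H3K4me1 covered 21.2% of the window.

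Socs3 (chromosome 11, 117827393 to 117831361, minus strand), the inhibitor of signalling through gp130 receptors, had 8 H3K4me1 peaks and 1 Runx3 peak. At least 8 H3K4me1 peaks were found at 7.38% of protein-coding genes. H3K4me1 covered 24.1% of the window. An H3K4me1 peak (chr11:117831336-117832611) met the gene start and the widest, 2177 bp (chr11:117827479-117829655), covered the 3′ part of the gene, but the nearest Runx3 peak downstream was centred 120787 bp from the gene start. The Runx3 peak upstream (chr11:117851001-117851753) lay in an intron of Pgs1, a gene of phospholipid synthesis whose start was 3771 bp from the peak centre. It straddled the edge of the window, and with a flank of 10 kb Socs3 had no Runx3 peak. An H3K4me1 peak lay across each end of the Runx3 peak, whose centre fell in the gap of 459 bp between them. Over the 5 genes flanks of 50 kb held 18 Runx3 peaks, of which 2 were at Socs3.

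Socs2 (chromosome 10, 94847996 to 94879814, minus strand) had no peak in its window of 71.8 kb, as was the case for 41.6% of protein-coding genes. The nearest Runx3 peak was centred 93521 bp downstream of the gene start and the nearest H3K4me1 peak 54912 bp upstream. The window was not short of unique sequence. Of its 71780 40-mers, 40 bp being the length of the reads, 68174 occurred once in the genome, against shares of 91.2 to 95.8% at the other genes, and within 1 kb of the start 99.5% did. It held 152 RUNX and 28 STAT matches, 2.12 and 0.390 per kb, where the other windows held 1.66 to 2.23 and 0.246 to 0.513 per kb. Without heights or control values a region below the threshold of the peak caller cannot be told from one without binding.

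**Figure D2:**
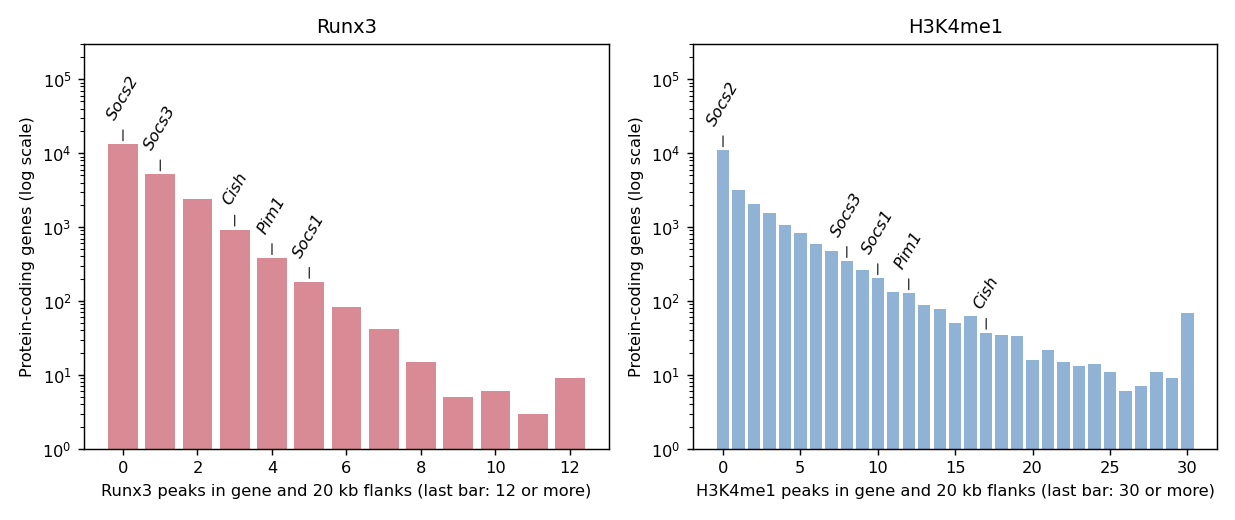
Number of protein-coding genes (y axis, log scale) by the number of Runx3 peaks (left) and H3K4me1 peaks (right) in the gene and its 20 kb flanks, with the last bar pooling the highest counts. Socs1, Pim1 and Cish stand at 5, 4 and 3 Runx3 peaks, Socs3 at 1 and Socs2 at 0, and Cish is highest of the 5 for H3K4me1 with 17.

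Together, 4 of the 5 genes had a Runx3 peak, as did 41.1% of protein-coding genes. At least 3 Runx3 peaks were found at 3 of the 5 and at 7.36% of protein-coding genes. A Runx3 peak centred within 1 kb of the gene start was found at 3 of the 5 and at 11.3% of protein-coding genes. A Runx3 peak that overlapped H3K4me1 was found at 4 of the 5, at 20.5% of protein-coding genes and at 49.9% of the 9193 that had a Runx3 peak. The same 4 genes had at least 8 H3K4me1 peaks, as did 7.38% of protein-coding genes and 16.9% of those with a Runx3 peak. Of the 13 Runx3 peaks, 7 were centred downstream of the gene, 4 in it and 2 upstream, and of the 47 H3K4me1 peaks 33 were downstream, 2 in the gene and 12 upstream. The H3K4me1 counts downstream and upstream were 12 and 0 at Pim1, 8 and 2 at Socs1, 9 and 7 at Cish and 4 and 3 at Socs3. These positions were not compared with those at all genes. The genes were chosen with peaks of these data known, so these counts describe the loci and were not tested. Windows differ in length with the gene, from 41.7 kb at Socs1 to 71.8 kb at Socs2.

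Runx3 peaks at these genes met H3K4me1 mostly at their edges. Of the 13, 10 overlapped an H3K4me1 peak (76.9%, 95% Wilson interval 49.7 to 91.8%), against 48.4% of all Runx3 peaks. Only 1 of the 13, in the last exon of Cish, had its centre inside an H3K4me1 peak (7.69%, 1.37 to 33.3%), against 28.2% of all. In 6 the centre fell in a gap of up to 1 kb between H3K4me1 peaks (46.2%, 23.2 to 70.9%), against 9.15% of all. These 6 were Cish +17.0 kb, Socs1 +13.2 kb and +16.6 kb, the Socs3 peak, Pim1 +10.2 kb and the farthest Pim1 peak, with gaps of 85 to 875 bp. At peaks more than 1 kb from any transcript start, 7 of 9 overlapped H3K4me1 (77.8%, 45.3 to 93.7%), against 57.8% of all such peaks. Intervals cover counting error only, and neighbouring peaks of a locus are not independent.

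Sequence in the Runx3 peaks was compared with that of all Runx3 peaks. RUNX motifs were found in 12 of 13 (92.3%, 95% Wilson interval 66.7 to 98.6%), against 96.0% of all, at 3.16 per kb against 4.14. ETS motifs (NGGAAN with A or C at the first N and A or G at the last, on either strand) were found in 12 of 13, against 91.4% of all. AP-1 motifs (TGACTCA, or TGAGTCA read on the opposite strand) were found in 5 of 13 (38.5%, 17.7 to 64.5%), against 26.2%. STAT motifs were found in 8 of 13 (61.5%, 35.5 to 82.3%), against 21.6% of all Runx3 peaks. Their density was 1.17 per kb against 0.334 per kb. In the central 200 bp STAT motifs were found in 6 of 13 (46.2%, 23.2 to 70.9%), against 6.66% of all. There RUNX was found in 9 of 13 (69.2%, 42.4 to 87.3%) against 77.0%, ETS in 7 of 13 (53.8%, 29.1 to 76.8%) against 58.9% and AP-1 in 1 of 13 (7.69%, 1.37 to 33.3%) against 12.6%. Each of these shares was below that of all Runx3 peaks, which lay within the interval. At peaks more than 1 kb from any transcript start, STAT motifs were found in 6 of 9 (66.7%), against 22.5% of all such peaks. Of the 14 STAT matches 6 overlapped an ETS match, since both motifs can share the letters GGAA.

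Outside the peak at the Cish start, the STAT motifs lay mostly in peaks more than 1 kb from any transcript start. Examples with RUNX and STAT matches near each other are given on the strand of the gene with both in capitals, and at Socs3 also the AP-1 matches.

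Pim1 +10.2 kb (chr17:29637859-29637899, plus strand): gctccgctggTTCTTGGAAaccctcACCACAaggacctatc
Socs1 +13.2 kb (chr16:10772391-10772471, minus strand): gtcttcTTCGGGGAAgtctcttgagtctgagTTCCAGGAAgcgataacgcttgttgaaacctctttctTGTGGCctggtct
Socs1 +16.6 kb (chr16:10768984-10769046, minus strand): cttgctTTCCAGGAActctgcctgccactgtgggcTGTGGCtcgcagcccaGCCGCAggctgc
Socs1 +2.2 kb (chr16:10783292-10783512, minus strand): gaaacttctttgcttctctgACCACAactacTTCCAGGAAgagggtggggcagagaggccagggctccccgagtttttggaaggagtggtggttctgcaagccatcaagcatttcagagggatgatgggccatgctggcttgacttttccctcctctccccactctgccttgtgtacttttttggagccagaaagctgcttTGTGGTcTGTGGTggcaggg
Socs3, peak in Pgs1 (chr11:117851281-117851571, minus strand): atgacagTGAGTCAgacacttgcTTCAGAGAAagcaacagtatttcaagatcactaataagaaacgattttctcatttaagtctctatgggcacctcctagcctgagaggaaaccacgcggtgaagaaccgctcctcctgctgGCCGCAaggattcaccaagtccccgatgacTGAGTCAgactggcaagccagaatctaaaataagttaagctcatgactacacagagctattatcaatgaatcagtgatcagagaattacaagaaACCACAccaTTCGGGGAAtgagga

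A RUNX and a STAT motif with starts up to 50 bp apart, a distance chosen after the matches were seen, were present in 6 of the 13 Runx3 peaks (46.2%, 23.2 to 70.9%) and in 7.11% of all Runx3 peaks. The nearest starts were 12 bp apart in the Socs3 peak, 14 bp in Socs1 +2.2 kb, 15 bp in Pim1 +10.2 kb, 16 bp in Cish +0.5 kb, 26 bp in Socs1 +16.6 kb and 34 bp in Socs1 +13.2 kb. In the broad peak at the Socs1 start they were 130 bp apart. The Socs3 peak held 3 STAT matches, of which 2 are within the stretch printed, and 0.360% of all Runx3 peaks held 3 or more.

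Other motif layouts without such a combination are shown in capitals for RUNX at the Socs1 and Pim1 starts, and for AP-1 and STAT in the Cish peak without a RUNX motif.

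Socs1 -0.3 kb, upstream end (chr16:10786743-10786784, minus strand): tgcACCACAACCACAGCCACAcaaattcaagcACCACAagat
Pim1 +0.1 kb (chr17:29627961-29627986, plus strand): ccaGCCGCAgccagaGCCGCAacgcc
Cish +17.0 kb (chr9:107215244-107215364, plus strand): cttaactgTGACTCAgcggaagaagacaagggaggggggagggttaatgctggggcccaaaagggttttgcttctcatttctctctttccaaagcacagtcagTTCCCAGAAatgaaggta

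**Figure D3:**
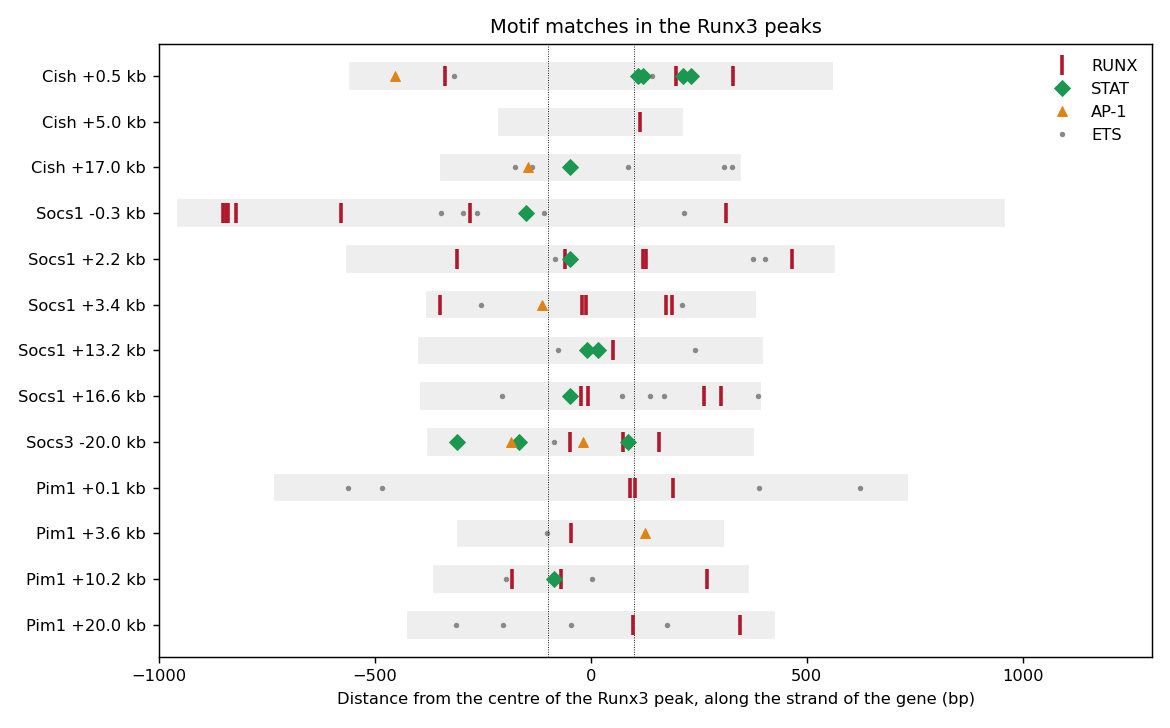
Matches to the RUNX, STAT, AP-1 and ETS motifs in the 13 Runx3 peaks, by distance from the peak centre in bp along the strand of the gene, with each peak as a grey bar to scale and dotted lines around the central 200 bp. STAT matches (green) lie in 8 peaks, with 4 in the peak at the Cish start and none in the peak at the Pim1 start.

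RUNX motifs in 300 bp promoter windows (250 bp before to 50 bp after the gene start) were present at 45.3% of protein-coding genes and STAT motifs at 7.94%. ETS motifs were present at 65.5% and AP-1 motifs at 4.42%. A match gives letters in a window and not a bound site, and STAT binding was not measured here.

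The pathway was then read beyond these genes, in a list of 20 genes drawn up by role. It held the other SOCS genes, the other Pim kinases, subunits of the SOCS-box ligase and further negative regulators of JAK-STAT signalling. Their windows ran from 43.5 kb at Pim3 to 302.3 kb at Socs6, with 216.5 kb at Cblb. The peak counts were not adjusted for this length. Of the 20, 9 had a Runx3 peak (45.0%), near the 41.1% of all protein-coding genes, and 15 had an H3K4me1 peak, against 51.1% of all. A Runx3 peak centred within 1 kb of the gene start was present at 4 of the 20, Pim3, Tceb1, Ptpn1 and Ptpn2, and at 11.3% of all. None of Socs4, Socs5, Socs6 and Socs7 had a Runx3 peak, and H3K4me1 peaks were found at Socs5 with 1 and Socs7 with 6. Both other Pim genes had Runx3 peaks. Pim3 had 4, all of which overlapped H3K4me1, with one centred 3 bp upstream of its start, and 11 H3K4me1 peaks, while Pim2 had 2 Runx3 peaks without overlap and 1 H3K4me1 peak.

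Among the ligase partners, Tceb1 (elongin C) had 2 Runx3 peaks, and Tceb2 (elongin B), Cul5 and Rnf7 had none. Of the other negative regulators 6 of 10 had a Runx3 peak. Ptpn1, which encodes a phosphatase that acts on JAK kinases, had the most of the list, 7, of which 6 overlapped H3K4me1, and 19 H3K4me1 peaks. Ptpn2, Ptpn6 and Ptpn11, which encode further phosphatases, Sh2b3, which encodes the adaptor LNK, and Cblb, which encodes a ubiquitin ligase, had 1 Runx3 peak each, with 9 to 22 H3K4me1 peaks. Pias1, Pias2, Pias3 and Pias4, which encode SUMO ligases that restrain STATs, had none, although Pias4 had 11 H3K4me1 peaks. At the Runx3 peaks of the list, 7 of 20 held a STAT motif (35.0%, 95% Wilson interval 18.1 to 56.7%) and 12 of 20 overlapped H3K4me1 (38.7 to 78.1%). Over all Runx3 peaks the shares were 21.6% and 48.4%, both within these intervals.

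**Figure D4:**
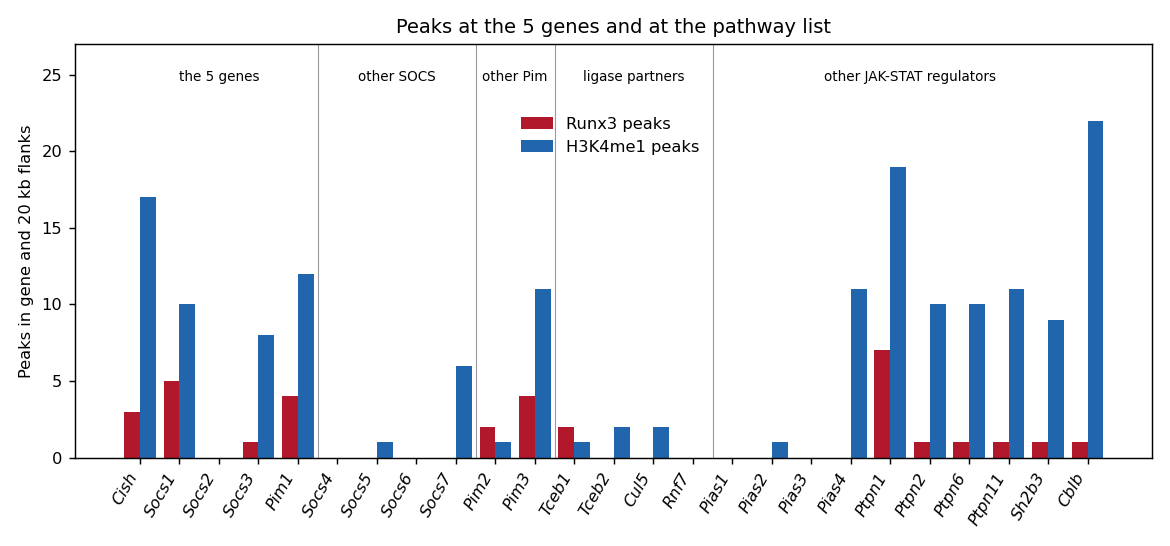
Number of Runx3 peaks (red) and H3K4me1 peaks (blue) in the gene and its 20 kb flanks, for the 5 genes and the 20 genes of the pathway list grouped by role. Ptpn1 with 7 and Pim3 with 4 have the most Runx3 peaks in the list, and the other SOCS genes have none.

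The gene with the most similar layout was found for each of the 5 genes from the bins of 500 bp occupied by either list within 20 kb of the gene start, measured as the Jaccard index (shared bins as a share of the bins occupied at either gene). It was Akna for Socs1 (0.617, 37 shared bins), Cxxc5 for Cish (0.586, 34 bins), Vps37c for Pim1 (0.558, 24 bins) and Ptk2b for Socs3 (0.531, 17 bins). The index pooled both lists within 20 kb of the gene start. The peak counts that follow cover the whole gene and its 20 kb flanks, a longer span, and are not measured over the same window as the index. Akna had 2 Runx3 and 25 H3K4me1 peaks (Socs1 5 and 10), and Ptk2b had 6 and 37 (Socs3 1 and 8). Cxxc5 had 2 and 16 (Cish 3 and 17), and Vps37c had 5 and 10 (Pim1 4 and 12). Socs2 had no occupied bin.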

How the data were processed

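Runx3 and H3K4me1 ChIP-seq of IL-2-activated splenic NKC was examined through 2 lists of peaks. Reads of 40 bp had been aligned to mm9 with ELAND by the authors, who kept unique alignments, joined reads of repeat libraries and used MACS 1.4 against NIS, scaling the larger dataset down. Each deposited peak has only a chromosome, a start and an end, neither score nor value per library. Read depth is given in the study's methods, and the precision of single peaks could not be derived from the lists.

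BED starts were raised by 1. Genes and sequence were GENCODE M1 on NCBIM37 (mm9), whose chromosomes contain every peak. Distances run from the peak centre to the 5′ end of the gene. RefSeq starts came from promoters of GRCm38.p6 matched exactly to mm9. Shares carry 95% Wilson intervals, and no test was run, since the lists hold no replicates. The 5 genes, the pathway list and the motifs were chosen with earlier results of these data known. Named were the 5 genes, the list, genes in the windows, all 13 Runx3 peaks, the widest or adjoining H3K4me1 peaks, and the gene of most similar layout more than 100 kb away. Alternatives were flanks of 5, 10 and 50 kb, other rules for peaks, overlap, motifs and starts, and other gene sets. Simulated data were used to test the overlap, motif and 40-mer counts. Software was python 3.11.15, numpy 2.4.6, scipy 1.17.1, pysam 0.24.0, samtools 1.23.1, numba 0.67.0 and matplotlib 3.10.9.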

Additional observations from a re-analysis of the deposited data

How the results depend on the processing

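Of 30 comparisons of summary values with an alternative, 12 were counted as moved and 18 were not. Of 30 comparisons of the peak counts of single genes with other flanks, 16 were counted as moved and 14 were not. Values not counted as moved could still shift. At the 5 genes the share of Runx3 peaks with a RUNX motif fell from 92.3% to 69.2% in the central 200 bp. The share that overlapped H3K4me1 fell from 76.9% to 57.1% with 5 kb. Each lay within the Wilson interval of its main value. Runx3 peaks numbered 9 with 10 kb in place of 13. H3K4me1 peaks numbered 32 in place of 47 when the nearest protein-coding gene start had to be that of the gene. The flank set the counts. Runx3 peaks at the 5 genes numbered 13 with 20 kb and 7 with 5 kb, and H3K4me1 peaks numbered 47 with 20 kb, 18 with 5 kb, 28 with 10 kb and 78 with 50 kb. The share of protein-coding genes with a Runx3 peak was 28.8%, 33.5% and 55.4% with 5, 10 and 50 kb, 31.5% with flanks around the gene start only and 32.9% over all annotated genes, against 41.1%. Genes of the pathway list with a Runx3 peak rose from 9 to 16 with 50 kb. Joining peaks closer than 1 kb left 19 H3K4me1 peaks at the 5 genes. When at least 50% of the Runx3 peak had to be covered, the share that overlapped H3K4me1 was 23.1% in place of 76.9%, against 31.6% of all Runx3 peaks. Socs2 had 0 peaks of either list with every flank, Socs1 had 3 Runx3 peaks with 5 or 10 kb in place of 5, Pim1 had 2 with 5 kb in place of 4, and Socs3 had 0 Runx3 peaks with 5 or 10 kb and 2 with 50 kb. The remaining moves of single genes were in H3K4me1 counts. The 3 genes with a Runx3 peak at the start were 3 under each other rule for the start, and STAT motifs were in 8 peaks with a narrower motif (C or T at the first N, A or G at the last) and in 6 in the central 200 bp. Leaving out a library was not possible, since the lists hold joined or single libraries. No paired analysis was possible because the lists carry no values per library and no test was made.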

Other observations

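The H3K4me1 peaks of the 5 genes, some of which overlap Runx3 peaks, were searched for the same motifs. STAT motifs were found in 16 of 47 (34.0%, 95% Wilson interval 22.2 to 48.3%), against 20.4% of all H3K4me1 peaks, RUNX motifs in 38 of 47 (80.9%, 67.5 to 89.6%), against 79.7%, and AP-1 motifs in 13 of 47 (27.7%, 16.9 to 41.8%), against 20.3%. These shares were not adjusted for peak width, and a wider peak has more room for a match. The H3K4me1 peaks at the 5 genes measured 342 to 3550 bp, and the median over all H3K4me1 peaks was 689 bp. Whether the STAT share differs at equal width was not tested. Over the 5 windows 101 STAT matches were found in 248.9 kb, of which 12 lay inside the Runx3 peaks, which filled 4.67% of the windows, with peaks trimmed at the window edges. Of the 47 H3K4me1 peaks, 12 overlapped a Runx3 peak (25.5%, 15.3 to 39.5%), against 19.9% of all.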
